A study of Mus musculus with 5 samples.

Results

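Ovarian cells of mice aged 4 wk were compared with those of mice aged 5 wk inside 2 lineages, granulosa and mesenchyme, each set by the counts of 2 marker genes. A cell entered when it held at least 1000 detected genes and when under 15% of its UMIs (unique molecular identifiers, each standing for 1 captured RNA molecule) came from the mitochondrial genome. The granulosa gate took cells with at least 5 UMIs of Inha, which encodes the inhibin alpha subunit, and 0 of Dcn, which encodes the matrix proteoglycan decorin. The mesenchyme gate took cells with at least 3 UMIs of Dcn and at most 4 of Inha. Granulosa cells numbered 4508 of the 9169 cells that passed at 4 wk and 2540 of the 6558 that passed at 5 wk. Mesenchyme cells numbered 2390 and 2353, so that 11791 of the 48163 cells of the series entered the comparison.

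The series holds 5 libraries of dissociated ovaries, 1 each at 2, 3, 4, 5 and 6 wk, from C57BL6/J mice that were given no treatment. The ovaries were digested with trypsin, live cells were sorted with the dye SYTOX Orange, and UMIs were counted by the 10x Genomics 3′ method. How many mice went into a library is not given in the sources used here. With 1 library per age there is no replicate, so no test between ages was run, and every interval given below is a 95% interval that covers counting error alone. The tables of 2, 3 and 4 wk were made with Cell Ranger 3.1.0 and those of 5 and 6 wk with Cell Ranger 6.0.1, so that age, library and software version cannot be told apart between 4 and 5 wk. The gates held 64972674 and 48374735 UMIs of granulosa cells and 21844837 and 28578543 UMIs of mesenchyme at 4 and 5 wk. Of the barcodes, 31 occurred in both libraries, and 8 of them lay in a gate at both ages.

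Granulosa cells surround the oocyte, divide as the follicle grows, and make anti-Müllerian hormone in small growing follicles and estradiol, inhibin and activin in larger ones that hold a fluid-filled antrum. The androgen that they turn into estradiol is made in the theca, the outer layer of the follicle, which is of mesenchymal origin. The theca expresses Cyp17a1, the enzyme of androgen synthesis, and so, the study states, do interstitial gland cells. The remaining mesenchyme of the ovary supplies the collagen-rich matrix, smooth muscle and the cells around vessels.

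Levels are counts per 1000000 (CPM), for which a gene was summed over the cells of a gate and divided by the total of those cells. A gene was compared when it reached 10 CPM at 4 or at 5 wk, and a difference was called past 2-fold when the ratio of 5 wk over 4 wk was at least 2 or at most 0.5. The share of granulosa cells among passing cells was 49.2% at 4 wk (exact binomial interval 48.1 to 50.2%) and 38.7% at 5 wk (37.5 to 39.9%), a ratio of 0.788 (0.75 to 0.827). Mesenchyme held 26.1% (25.2 to 27.0%) and 35.9% (34.7 to 37.1%), a ratio of 1.38 (1.3 to 1.46). The cells of the gates were deeper at 5 wk, with medians of 13228 and 17322 UMIs in granulosa and 7912.5 and 9801 in mesenchyme.

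The granulosa gate kept the markers it was named for at both ages, since 8 granulosa markers summed to 1956 CPM at 4 wk and 1835 at 5 wk and none was at 0. In the mesenchyme gate 9 mesenchymal markers summed to 7302 and 6514 CPM. At 5 wk, however, the granulosa gate also held cells that went against its name. Cyp17a1 was counted at 3 or more UMIs in 277 of its 2540 cells (10.9%, with 13.2% of the UMIs of the gate), against 12 of 4508 cells at 4 wk (0.266%) and 22, 2 and 6 cells at 2, 3 and 6 wk. These cells were searched for after the ratios had been seen.

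The 277 cells stood apart from the rest of the gate in steroid enzymes and in granulosa genes alike. Cyp11a1, which makes pregnenolone from cholesterol, stood at 5699 CPM in them and at 45.9 CPM in the other cells of the gate. Star, which carries cholesterol into mitochondria, stood at 480.3 and 7.28 CPM, and Fdx1, the electron donor of Cyp11a1, at 4512 and 204 CPM. Genes of granulosa cells were lower in them. Amh, anti-Müllerian hormone, stood at 5.03 CPM in them against 322 CPM in the rest, Fst, the activin-binding follistatin, at 36.9 against 491 CPM, and Esr2, estrogen receptor beta, at 8.64 against 151 CPM. Inha itself was at 1376 and 3810.4 CPM. The 277 cells carried 99.5% of the Cyp17a1 UMIs of the gate, by their choice, together with 95% of its Cyp11a1, 90.9% of its Star, 90.0% of its Lhcgr (the luteinizing hormone receptor) and 60.8% of its Hsd3b1. In the whole 5 wk library 534 passing cells had 3 or more Cyp17a1 UMIs, of which 28 lay in the mesenchyme gate and 229 in neither gate. The granulosa comparison is therefore given with these cells and without them, and their level of other genes rests on cells chosen by a related readout and is a description.

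Over all cells of the granulosa gate, 333 of 8494 genes compared were past 2-fold higher at 5 wk (3.92%) and 45 were past 2-fold lower (0.53%). Without the Cyp17a1 cells at either age, 177 of 8399 genes were higher (2.11%) and 39 lower (0.464%). Of the 333 higher genes 159 were higher in both readings (47.7% of the 333 and 89.8% of the 177), and of the 45 lower genes 34 were lower in both. In the mesenchyme, 194 of 8564 genes were higher (2.27%) and 38 lower (0.444%). In what follows "the whole gate" includes the Cyp17a1 cells, and values of granulosa cells given without that word leave them out. The ratio of the median gene was 1.03 in granulosa with and without the Cyp17a1 cells and 0.996 in mesenchyme.

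The leading genes of the whole granulosa gate included steroidogenic genes and haemoglobins. Cyp17a1 was at 1.59 CPM at 4 wk and 436 CPM at 5 wk, a ratio of 275 (227 to 337), and Cyp11a1 at 10.1 and 789.7 CPM, a ratio of 78.1 (72.3 to 84.5). Plin1, a lipid droplet coat protein, Lhcgr and Aldh1a2, a retinoic acid synthesis enzyme, had ratios of 65.2, 60.7 and 43.7. None of these 3 reached 10 CPM at either age once the Cyp17a1 cells were left out. Hbb-bs, a beta globin, was at 0.277 and 95.1 CPM, but the 10 richest cells held 96.3% of its UMIs at 5 wk. Hbb-bt had 0 UMIs in the 4 wk granulosa cells and 16.7 CPM at 5 wk, which was at least 361-fold higher against a floor of 3 UMIs. The 4 red cell markers summed to 0.585 and 156 CPM in the whole gate, to 0.587 and 6.88 CPM without the Cyp17a1 cells, and to 0.407 and 168 CPM in cells of neither gate, and their part in the ratios of other genes was not tested.

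Steroid and theca genes differed widely between both readings of the gate. Of 14 steroidogenic enzymes compared in the whole gate, 9 were past 2-fold higher and 0 lower, where 3.92% of all genes were higher (median log2 ratio 1.64, where the median of all genes was 0.04). Without the Cyp17a1 cells 5 of 12 were higher and 0 lower, where 2.11% of all genes were higher (median 0.62): Cyp11a1, Hsd3b1, Hsd17b1, Cyp19a1 and Fdx1. The theca list gave 10 of 13 higher with the Cyp17a1 cells and 3 of 8 without them (Mgarp, Cyp11a1 and Aldh1a1), none of them lower. Cells with at least 1 but under 3 Cyp17a1 UMIs stayed in the second reading, 30 at 4 wk and 89 at 5 wk. In that reading 7 theca markers, Cyp11a1 and Mgarp among them, summed to 40.1 and 188 CPM. The part of theca RNA in these ratios was not tested. Cholesterol synthesis and uptake gave 5 of 24 higher, among them Hmgcs1 and Scarb1, and 1 of 23 without the Cyp17a1 cells (4.35%, against 2.11% of all genes). That remaining gene was Idi1, an enzyme of the isoprenoid steps, at 7.46 and 17.8 CPM (ratio 2.39, 2.12 to 2.68).

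**Figure D1:**
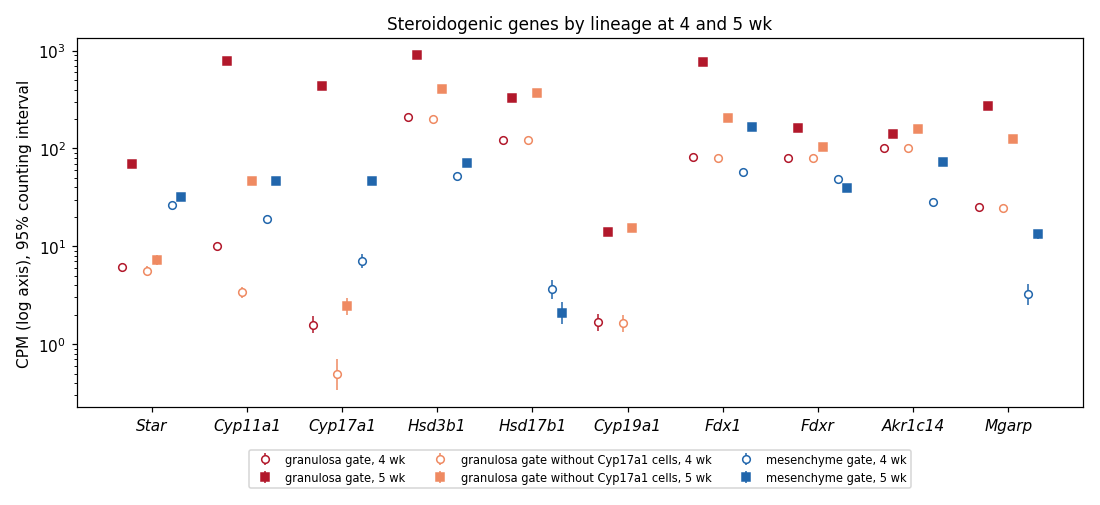
CPM on a log axis of 10 steroidogenic genes at 4 wk (open circles) and 5 wk (filled squares) in the granulosa gate, in the same gate without Cyp17a1 cells and in the mesenchyme gate, with 95% counting intervals where these exceed the symbol. Star and Cyp17a1 were under 10 CPM at both ages once the Cyp17a1 cells were left out of the granulosa gate, whereas Hsd17b1 and Cyp19a1 were not lower without them, and Cyp19a1 (0 and 1 UMIs in mesenchyme) is not drawn there.

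In the granulosa cells without Cyp17a1, several genes of hormone synthesis and of signals to the oocyte were past 2-fold higher at 5 wk. Inhba, which encodes the beta A subunit of activin and inhibin A, stood at 105 CPM at 4 wk and 537 CPM at 5 wk (ratio 5.13, 4.99 to 5.27). Cyp19a1, the aromatase that makes estradiol, stood at 1.64 and 15.4 CPM (ratio 9.42, 7.66 to 11.7). Hsd17b1, which reduces estrone to estradiol, was at 122 and 366 CPM (ratio 2.99, 2.91 to 3.07). In the whole gate, Cyp17a1 cells included, their ratios were 4.68, 8.49 and 2.66. Nppc, the C-type natriuretic peptide that holds the oocyte in meiotic arrest, was at 27.7 and 62.4 CPM, and Kitl, the ligand of the oocyte receptor Kit, at 57.4 and 124 CPM. Hsd3b1, which makes progesterone from pregnenolone, was at 199.6 and 406 CPM, a ratio of 2.03 against 4.33 in the whole gate.

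Of 25 granulosa growth and antral genes compared without the Cyp17a1 cells, 5 were past 2-fold higher (Inhba, Kitl, Nppc, Hsd17b1 and Cyp19a1) and 0 lower, where 2.11% of all genes were higher. The median log2 ratio was 0.30, and 8 of the 25 had a ratio below 1. The whole gate gave 7 of 26, with Lhcgr and Prlr in addition, where 3.92% of all genes were higher. Amh went the other way without passing 2-fold, from 541 to 322 CPM (ratio 0.595, 0.583 to 0.607). Fst was at 401 and 491 CPM, and Foxl2, a transcription factor of ovarian identity, at 85.8 and 144 CPM (ratio 1.68). Sox4, a transcription factor that the study names for granulosa cells under remodeling, was at 1529.8 and 967 CPM, and 0 of the 6 genes of that list were past 2-fold in either lineage. That list was chosen by the study on these libraries.

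Over the 5 libraries these genes did not share 1 course. Inhba stood at 51.7, 309, 105, 537 and 1091 CPM at 2, 3, 4, 5 and 6 wk, so that 4 wk was below both of its neighbours. Cyp19a1 stood at 10.3, 8.21, 1.64, 15.4 and 23.6 CPM and was lowest at 4 wk. Hsd3b1 was lowest at 4 wk as well, at 628 CPM at 3 wk, 199.6 at 4 wk and 738 at 6 wk. Nppc and Fst were higher at each age than at the one before, and Amh was highest at 3 wk and lowest at 6 wk.

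**Figure D2:**
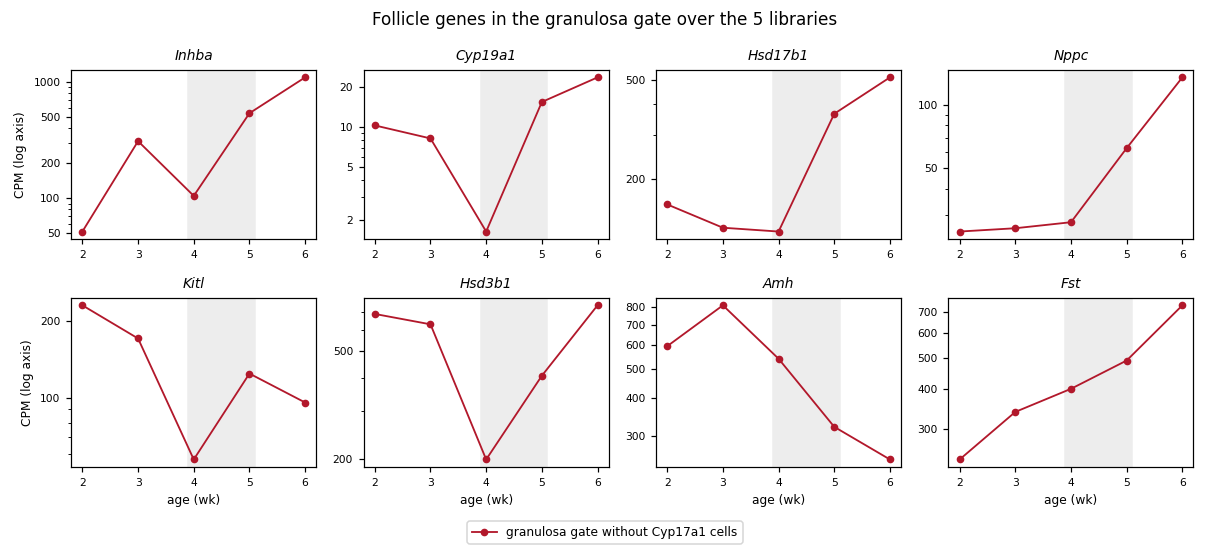
CPM on a log axis of 8 follicle genes in the granulosa gate without Cyp17a1 cells at 2 to 6 wk, 1 library per age, with the 4 and 5 wk libraries shaded. Inhba, Cyp19a1, Hsd17b1, Kitl and Hsd3b1 were lower at 4 wk than at 5 wk, and Amh was higher, at 541 against 322 CPM.

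The share of cells with a UMI was higher at 5 wk for Inhba, Hsd17b1 and Cyp19a1. For Inhba and Hsd17b1 the share was higher by a smaller factor than the level. In cells thinned to 2500 UMIs each, Inhba was found in 11.8% of granulosa cells at 4 wk (10.9 to 12.8%) and 22.1% at 5 wk (20.4 to 23.8%), and in 26.1% and 33.1% before thinning. Hsd17b1 was found in 21.7% and 43.2% of thinned cells (58.2% and 80.5% before thinning), and Cyp19a1 in 0.313% and 3.24% (1.8% and 9.59%). In immune cells thinned shares were 0 of 23 cells at 4 wk and 1 of 67 at 5 wk for Inhba, 1 and 0 for Hsd17b1, and 0 and 0 for Cyp19a1. The immune cells had median depths of 6473 and 6610 UMIs. They were few and were taken with 0 UMIs of Inha and Dcn. That rule leaves out beforehand immune cells in which RNA of these genes was counted. Their shares therefore cannot measure how much granulosa RNA other cells carry. Thinning left out 19 granulosa cells at 4 wk and 10 at 5 wk.

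Genes past 2-fold lower at 5 wk in granulosa cells included collagens, some at low levels. Col1a1, a chain of collagen I, was at 10.6 and 2.62 CPM without the Cyp17a1 cells (ratio 0.248, 0.201 to 0.304), and Col1a2 at 19.3 and 6.36 CPM (ratio 0.328). Without these cells 4 of 9 collagens compared were lower and 0 higher, where 0.464% of all genes were lower. In the whole gate 2 were lower and Col3a1 was higher (ratio 2.28), where 0.53% of all genes were lower and 3.92% higher. Without the Cyp17a1 cells Col3a1 had a ratio of 0.458. Mesenchymal cells hold these collagens at far higher levels, with Col1a1 at 1431 and 1098 CPM in the mesenchyme gate. The 9 mesenchymal markers summed to 111 and 76.8 CPM in the granulosa cells, with 7 of 9 lower at 5 wk. Col1a1, Col1a2 and Col3a1 are themselves 3 of these 9, so the sum partly restates the collagen values. The gate takes only cells with 0 UMIs of Dcn, and these cells were deeper at 5 wk (medians of 13214 and 16752 UMIs). The part of that rule and of mesenchymal RNA in the collagen ratios was not tested.

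Genes past the limit in granulosa cells and not in mesenchyme included Dynap, at 17.6 and 6.43 CPM, Edn1, the vasoconstrictor endothelin 1, at 42.8 and 19.1 CPM (ratio 0.447), and Kazald1, at 208 and 91.4 CPM (ratio 0.439). Dynap and Edn1 were not compared in mesenchyme because they stayed under 10 CPM there. Col11a1, a minor fibrillar collagen, was at 133 and 58.2 CPM (ratio 0.438), with 15.4 and 26.2 CPM at 2 and 3 wk and 65.7 at 6 wk. Smim5 and Lims2 had ratios of 0.298 and 0.303, and both were highest at 4 wk among the 5 libraries.

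Some of the higher genes of the granulosa gate without the Cyp17a1 cells lay in few cells. Cldn5, an endothelial tight junction gene, was at 1.24 and 16.9 CPM, Ctla2a at 0.958 and 13.4 CPM, and Igfbp7 at 22.3 and 71.8 CPM, and the 10 richest cells held 80.1%, 82.3% and 63.2% of their UMIs at 5 wk. In the whole gate the ratio of Igfbp7 was 6.32, and 26.4% of its UMIs lay in 10 cells. Blood endothelial markers summed to 9.16 and 38.3 CPM in these cells, with 5 of 5 higher and none at 0, and their part was not tested. Among the 177 higher genes 9 had at least 50% of their UMIs in 10 cells, and among the 39 lower genes 1 did, the smooth muscle myosin Myh11.

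In mesenchyme 232 genes passed the limit, against 378 in the whole granulosa gate and 216 without the Cyp17a1 cells, and several of its highest ratios lay in few cells. Hbb-bs was at 9.2 and 236 CPM with 98.1% of its UMIs in 10 cells, and the 4 red cell markers summed to 16.8 and 407 CPM. Pcp4, a calmodulin regulator, was at 3.11 and 32.6 CPM (ratio 10.5, 8.18 to 13.6), but also at 37.3 CPM at 2 wk and 0.151 at 6 wk, and 10 cells held 71.8% of its UMIs at 5 wk. Rgs5, a pericyte gene, was at 2.7 and 12.2 CPM with 90.5% in 10 cells. Of the 194 higher genes 19 had at least 50% of their UMIs in 10 cells, and of the 38 lower genes 4 did.

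Some steroidogenic genes were past 2-fold higher in the mesenchyme gate too. Cyp17a1 was at 7.1 and 45.9 CPM (ratio 6.48, 5.48 to 7.7), with 64.3% of its UMIs in 10 cells, and Cyp11a1 at 19.1 and 46.9 CPM (ratio 2.46), with 58.2% in 10 cells. Of 11 steroidogenic enzymes 4 were past 2-fold higher and 0 lower, where 2.27% of all genes were higher (median log2 ratio 0.43, against -0.01 for all genes): Cyp11a1, Cyp17a1, Fdx1 and Akr1c14. Akr1c14, a hydroxysteroid dehydrogenase, was spread over many cells, at 28.2 and 72.9 CPM (ratio 2.58, 2.36 to 2.83), with 6.09% of its UMIs in 10 cells. Star, at 26.3 and 31.8 CPM, was within 2-fold. Cyp17a1 was counted at 3 or more UMIs in 12 of 2390 mesenchyme cells at 4 wk and 28 of 2353 at 5 wk.

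Of 13 complement and chemokine genes compared in mesenchyme, 4 were past 2-fold higher and 0 lower (median log2 ratio 0.51), where 2.27% of all genes were higher. C3, the central complement component, was at 34.8 and 71.7 CPM (ratio 2.06, 1.89 to 2.24), and C4b at 6 and 13.5 CPM (ratio 2.25). Ccl2, a chemokine that draws monocytes, was at 5.13 and 23.5 CPM (ratio 4.59, 3.76 to 5.66), and its neighbour in function Ccl7 at 6.45 and 13.2 CPM. For Ccl7 10 cells held 51.9% of the UMIs at 5 wk. The 8 immune markers summed to 117 and 88.6 CPM in the gate, 3 of them higher and 5 lower, with none at 0. Among them Cd74 was lower, and C1qa, a complement gene of macrophages, was at 4.44 and 15.9 CPM (ratio 3.59). C1qb and C1qc had ratios of 3.04 and 3.96, and all 3 C1q genes had at least 50% of their UMIs in 10 cells at 5 wk. The part of immune cells in the complement and chemokine ratios was not tested.

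Of 11 insulin-like growth factor genes 1 was past 2-fold higher in mesenchyme, and of 9 retinoid genes 2 were, with none lower, where 2.27% of all genes were higher. Igfbp3, which binds insulin-like growth factors, was at 7.78 and 31.9 CPM (ratio 4.1, 3.48 to 4.86) and at 17.4 and 9.82 CPM at 3 and 6 wk. Lrat, which stores retinol as esters, was at 0.656, 1.65, 11.3, 24.1 and 43.5 CPM from 2 to 6 wk and thus higher at each age than at the one before. Aldh1a3, which makes retinoic acid, was at 6.18 and 15 CPM. The MHC class I genes H2-D1 and H2-Q4 had ratios of 2.86 and 2.3, 2 of 19 interferon-stimulated and class I genes, with none lower.

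The lower genes of the mesenchyme included abundant matrix genes that were found in many cells. Mfap4, a microfibril protein, was at 669 and 309 CPM (ratio 0.462, 0.45 to 0.474), and Mmp2, a gelatinase, at 346 and 169.7 CPM (ratio 0.49, 0.473 to 0.508). In thinned cells Mfap4 was found in 67% and 44% of mesenchyme cells (85.5% and 71.8% before thinning), and in 2 of 23 and 0 of 67 immune cells. The immune cells were taken with 0 Dcn UMIs, so their shares cannot measure how much mesenchymal RNA other cells carry. Mfap4 and Mmp2 were the 2 of 30 matrix and remodeling genes past 2-fold lower, where 0.444% of all genes were. None of the 30 was higher, their median log2 ratio was -0.06, and 0 of 16 collagens passed 2-fold in either direction. Sparc, which binds collagen, was at 3792 and 2161 CPM and Eln, elastin, at 97.1 and 48.9 CPM, both short of the limit at 0.57 and 0.504. Of 15 contractile genes of smooth muscle Synpo2 alone was past 2-fold, at 10.5 and 24.6 CPM, where 2.27% of all genes were higher. The median log2 ratio of the list was 0.39. In granulosa cells without Cyp17a1 the list went the other way, with 10 of 10 genes compared below 1 (median log2 ratio -0.52). Myh11 alone was past 2-fold lower there, where 0.464% of all genes were.

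Further genes that led the lower side of the mesenchyme are defining genes of other cells. Amh was at 14.5 and 1.89 CPM (ratio 0.13, 0.0957 to 0.174) and Nr5a2, a granulosa nuclear receptor, at 12.5 and 3.99 CPM (ratio 0.32). The 8 granulosa markers summed to 203 and 149.9 CPM in this gate, 8 of 8 lower at 5 wk and 1 of them at 0 there. Cd74 and the class II genes H2-Aa, H2-Ab1 and H2-Eb1, which mark cells that present antigen, had ratios of 0.266, 0.368, 0.393 and 0.344, and 10 cells held between 95.3% and 98% of their UMIs at 4 wk. The gate takes cells with at most 4 Inha UMIs, and its cells were deeper at 5 wk. The part of that rule, and of granulosa or immune RNA, in these ratios was not tested.

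In both lineages together 7605 genes were compared. With all granulosa cells 90 were past 2-fold higher in both (1.18%) and 10 lower in both (0.131%). That is 26.5% of the 378 genes past the limit in granulosa and 43.1% of the 232 in mesenchyme. Of the 378, 92 were not compared in mesenchyme, and of the 232, 73 were not compared in granulosa. Those genes could not be shared, so both shares are low by construction. Without the Cyp17a1 cells 79 of 7519 were higher in both (1.05%) and 11 lower (0.146%), and 87 of the 100 genes were past the limit in both readings. The comparison of each lineage uses the same pair of libraries, so the shared genes are given as values and not as support from a second measurement.

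**Figure D3:**
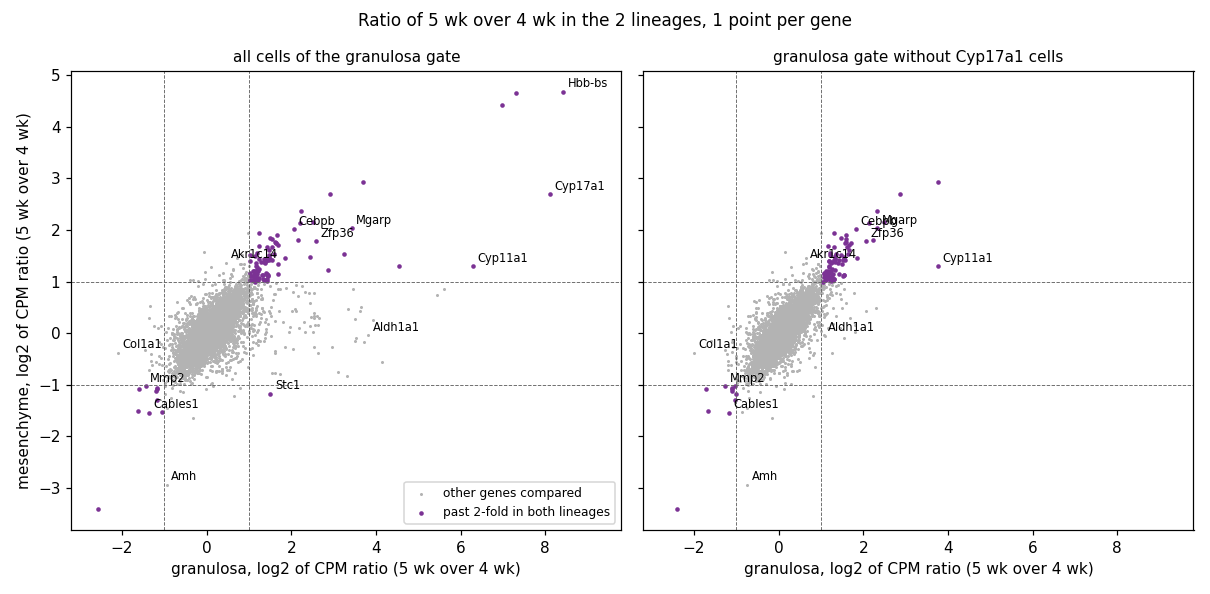
Each point is a gene, with the log2 ratio of CPM at 5 wk over 4 wk in granulosa (horizontal) and mesenchyme (vertical), for all cells of the granulosa gate (left) and without Cyp17a1 cells (right). Dashed lines mark 2-fold and purple points are past it in both lineages. The points to the right of the main cloud on the left, among them Cyp17a1, Aldh1a1 and Stc1, moved toward it or left the plot when the Cyp17a1 cells were left out.

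Zfp36, Cebpb and Btg2 were among the shared higher genes and were past 2-fold higher in cells of neither gate as well. Zfp36, which binds AU-rich messages and speeds their decay, was at 32.6 and 135 CPM in granulosa cells without Cyp17a1 (ratio 4.15, 3.95 to 4.37) and at 169 and 582 CPM in mesenchyme (ratio 3.44, 3.32 to 3.56). Cebpb, a transcription factor, was at 58.1 and 205 CPM in granulosa cells (ratio 3.53) and at 136 and 549 CPM in mesenchyme (ratio 4.04). Btg2, an inhibitor of cell division, was at 268 and 609.7 CPM and at 884 and 2319 CPM. Their ratios in the whole granulosa gate were 5.95, 4.15 and 2.66, and those in cells of neither gate were 4.75, 4.09 and 2.77. Thinned cells with a Zfp36 UMI made up 7.93% and 24.5% of granulosa cells (29.1% and 60.7% before thinning), and 10 of 23 and 37 of 67 immune cells, which express the gene themselves.

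The sequences upstream of these 3 genes are shown because they were higher in both lineages at once. Each is the 250 bases before the RefSeq start of the gene, read in the direction of transcription from RefSeq's mouse assembly GRCm38.p6, which is the build of the files (mm10). Capitals mark matches to 5 motifs searched on both strands.
Cebpb, chr2:167688665-167688914, plus strand: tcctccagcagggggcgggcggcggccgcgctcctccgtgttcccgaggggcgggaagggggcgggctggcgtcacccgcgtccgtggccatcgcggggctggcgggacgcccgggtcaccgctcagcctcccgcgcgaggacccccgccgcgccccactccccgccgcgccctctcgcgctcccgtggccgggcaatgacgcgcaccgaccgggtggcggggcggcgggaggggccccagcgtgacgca
Zfp36, chr7:28379229-28379478, minus strand: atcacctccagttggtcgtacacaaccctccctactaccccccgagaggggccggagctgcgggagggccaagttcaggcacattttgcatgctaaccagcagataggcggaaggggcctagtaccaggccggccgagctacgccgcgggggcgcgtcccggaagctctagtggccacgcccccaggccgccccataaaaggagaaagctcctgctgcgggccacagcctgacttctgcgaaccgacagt
Btg2, chr1:134079156-134079405, minus strand: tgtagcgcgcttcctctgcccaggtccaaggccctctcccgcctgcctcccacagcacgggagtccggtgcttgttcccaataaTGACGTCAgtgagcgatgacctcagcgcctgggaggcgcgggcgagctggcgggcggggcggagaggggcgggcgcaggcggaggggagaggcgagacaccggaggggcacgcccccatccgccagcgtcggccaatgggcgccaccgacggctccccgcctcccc

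The motifs were the cAMP response element TGACGTCA, the AP-1 site TGANTCA, the NR5A site AAGGTCA, the sterol regulatory element TCACNCCAC and the heat-shock element GAANNTTC. The capitals in Btg2 are a cAMP response element that begins 166 bases before the start, and no other match lay in the 3 windows. Of all 32851 windows of this length in the table, 1.55% held the cAMP response element, 6.75% the AP-1 site, 4.08% the NR5A site, 1.05% the sterol element and 6.69% the heat-shock element. A match is a description of the letters and not of a site in use. Cyp17a1 has no entry in the table.

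The other immediate-early and heat-shock genes were mostly within 2-fold. Of 26 compared, 5 were past 2-fold higher in granulosa cells without Cyp17a1 (Zfp36, Btg2, Nr4a1, Socs3 and Hspa1a). In the whole gate 7 were higher and in mesenchyme 4 (Zfp36, Btg2, Nr4a1 and Hspa1b), with 0 lower in any of them. These were shares of 19.2%, 26.9% and 15.4%, where 2.11%, 3.92% and 2.27% of all genes were higher. The median log2 ratios were 0.09, 0.24 and 0.05 in the same order. Nr4a1, an orphan nuclear receptor, was at 81.1 and 174 CPM in granulosa and 325 and 667 CPM in mesenchyme. Junb had a ratio of 2.08 in the whole gate, 1.67 in granulosa cells without Cyp17a1 and 1.21 in mesenchyme.

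Other shared higher genes have roles in cells of any type. Rpa3, a subunit of the single-strand DNA binding protein, was at 6.65 and 33.2 CPM in granulosa and 4.12 and 21.3 CPM in mesenchyme. Hacd2, which elongates fatty acids, had ratios of 4.67 and 3.47, the Mediator subunit Med30 3.29 and 3.35, Mrps28 of the mitochondrial ribosome 3.02 and 3.74, and Rnaseh1, which cuts RNA in hybrids with DNA, 3.12 and 2.91. In each lineage these 5 genes were at like levels at 3 and 4 wk and higher at 2 and 6 wk. Rpa3 in granulosa stood at 45.6, 5.98, 6.65, 33.2 and 47.9 CPM from 2 to 6 wk, and in mesenchyme at 36.9, 4.7, 4.12, 21.3 and 31.4 CPM.

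That course held for most of the shared higher genes. In 60 of the 90 (66.7%, against 3.66% of all 7605 genes) the 3 wk level lay within 1.5-fold of the 4 wk level while 2 and 6 wk were at least 1.5-fold above it, in both lineages. Without the Cyp17a1 cells it held for 57 of 79 (72.2%). These libraries include the 4 wk library of the comparison itself, so the counts are no separate measurement. In cells of neither gate 81 of the 90 were past 2-fold higher (3.58% of all genes were). The make-up of those cells differed between the ages, with blood endothelial markers at 84.3 and 696 CPM, theca markers at 289 and 2059, immune markers at 393 and 931 and oocyte markers at 4.59 and 625, and its part in their ratios was not tested. A difference in age and a difference between pairs of libraries cannot be told apart.

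A smaller group of the shared higher genes split the ages as the software versions do. In 9 of the 90 genes both 5 and 6 wk were at least 1.5-fold above each of 2, 3 and 4 wk, in both lineages, as Cell Ranger 6.0.1 and 3.1.0 were used, against 0.158% of all genes. Lars2, the mitochondrial leucyl-tRNA synthetase, was at 16.5, 30.3, 28.4, 124 and 95.9 CPM in granulosa. The gene model Gm42418 was at 803 and 5899.6 CPM in granulosa and 1226 and 7959 CPM in mesenchyme, and AY036118 had ratios of 5.61 and 4.47. These models, both named after their values were seen, overlap on opposite strands. They lie at chr17:39846958-39848788 and chr17:39847113-39848035 (GRCm38, GENCODE mouse release 21). Whether reads of 1 model were counted for the other was not tested. In 9 of the 90 genes 5 wk stood alone, at least 1.5-fold above every other age (0.21% of all genes did), and in 3 of 79 without the Cyp17a1 cells. The 90 genes were chosen as past 2-fold higher at 5 wk than at 4 wk, which meets part of both courses in advance. The shares of all genes are therefore not a like comparison.

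**Figure D4:**
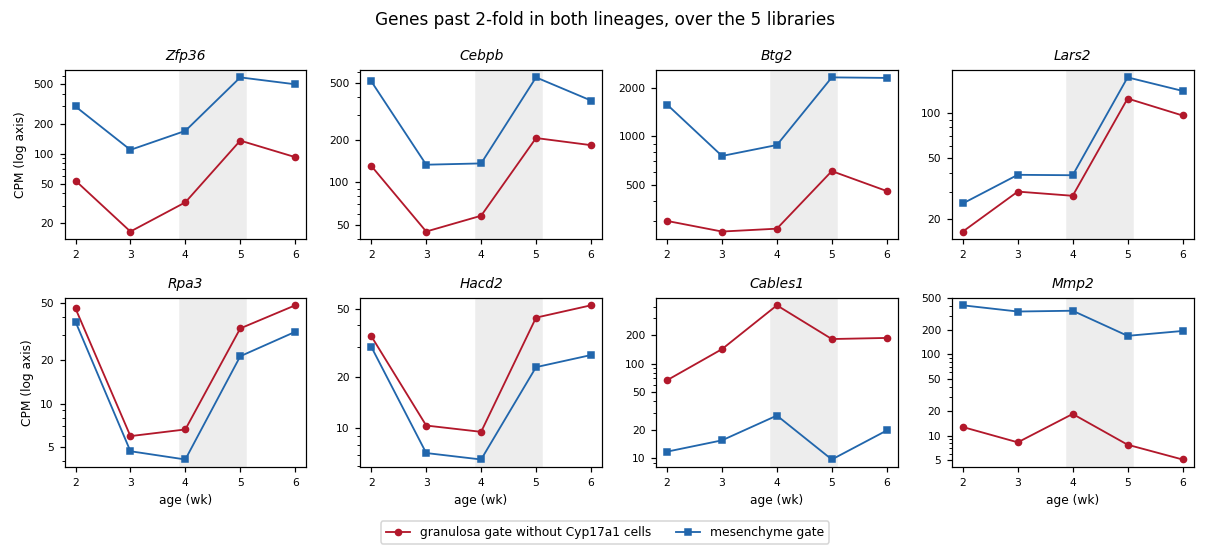
CPM on a log axis of 8 genes past 2-fold in both lineages at 2 to 6 wk, in the granulosa gate without Cyp17a1 cells (red circles) and the mesenchyme gate (blue squares), 1 library per age, with 4 and 5 wk shaded. Zfp36, Cebpb, Rpa3 and Hacd2 were low at 3 and 4 wk in both lineages, Lars2 was low until 4 wk, and Cables1 and Mmp2 were lower at 5 wk than at 4 wk.

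The shared lower genes numbered 10, and all 10 were past 2-fold lower in cells of neither gate (0.881% of all genes were). Cables1, an adaptor of cyclin-dependent kinases, was at 413 and 182 CPM in granulosa cells without Cyp17a1 (ratio 0.44, and 0.388 in the whole gate) and 28.2 and 9.69 CPM in mesenchyme (ratio 0.343). In granulosa cells without Cyp17a1 and in mesenchyme, Hmga2, a chromatin protein of growing cells, had ratios of 0.49 and 0.409, Mmp2 0.418 and 0.49, the deubiquitinase-like Usp50 0.315 and 0.349, and the microtubule-binding ubiquitin ligase Mid1 0.302 and 0.471. Sf3a2, of the spliceosome, had ratios of 0.466 and 0.461 and Lsm6 of 0.464 and 0.48. The whole gate gave 0.445 for Hmga2, 0.369 for Mmp2, 0.327 for Usp50, 0.328 for Mid1, 0.436 for Sf3a2 and 0.44 for Lsm6. Mmp2 is among the 9 mesenchymal markers, which summed to 111 and 76.8 CPM in granulosa cells. The part of mesenchymal RNA and of the Dcn rule in its granulosa ratio was not tested. The other shared lower genes were Smtnl2 and the gene models AC160336.1 and Gm47283. Without the Cyp17a1 cells Smtnl2 was at a ratio of 0.55 in granulosa, and Cygb, a globin of fibroblasts, and Pigt, of the GPI anchor transamidase, passed the limit in both lineages, with 0.488 and 0.494 in granulosa and 0.491 and 0.44 in mesenchyme. None of the 10 had the mirrored course, with 3 wk like 4 wk and both 2 and 6 wk at least 1.5-fold below. In 2 of the 10 both 5 and 6 wk were at least 1.5-fold below each of 2, 3 and 4 wk (0.0394% of all genes), and in 1 of the 10 5 wk alone was (0.0131%). The 10 genes were chosen as lower at 5 wk than at 4 wk, so part of these last 2 courses was met in advance.

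Lists of nuclear genes of protein synthesis, respiration and the cell cycle had 0 or 1 members past 2-fold each, and mitochondrially encoded genes had 4. Few of all genes passed as well. In the whole granulosa gate 3.92% were higher and 0.53% lower, without the Cyp17a1 cells 2.11% and 0.464%, and in mesenchyme 2.27% and 0.444%. A count of 0 or 1 is therefore not read as a trait of a list. Of 81 cytosolic ribosomal protein genes 0 passed 2-fold in granulosa or mesenchyme (median log2 ratio -0.22 in the whole granulosa gate, -0.16 without the Cyp17a1 cells and -0.10 in mesenchyme). Of 13 mitochondrially encoded genes 4 were higher in each lineage (mt-Atp8, mt-Nd3, mt-Nd4l and mt-Nd6) and 0 lower, a share of 30.8% against 3.92% of all genes in the whole granulosa gate, 2.11% without the Cyp17a1 cells and 2.27% in mesenchyme. Their median log2 ratios were 0.53, 0.35 and 0.44, with ratios of 2.98, 2.46, 2.11 and 2.75 in granulosa cells. Of the nuclear genes of oxidative phosphorylation 0 of 79 passed in granulosa without the Cyp17a1 cells, 1 in the whole gate and 0 of 78 in mesenchyme. Genes of DNA replication gave 0 of 18 and 0 of 16, and of 20 genes of G2 and mitosis Cdk1 alone passed (5%), at ratios of 2.3 and 2.63. Hedgehog, imprinted growth, glycolysis and steroid receptor genes had 0 members past the limit in both lineages without the Cyp17a1 cells, which is near the shares of all genes.

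Antioxidant, lipid and signalling lists had members past 2-fold higher and none lower, where 3.92% of all genes were higher in the whole granulosa gate, 2.11% without the Cyp17a1 cells and 2.27% in mesenchyme. Glutathione and antioxidant genes gave 6 of 20 higher in the whole granulosa gate, 4 of 19 without the Cyp17a1 cells and 3 of 21 in mesenchyme, and the transferases Gstp1 and Mgst3 were higher in each, at 2.49 and 2.71 and at 2.26 and 3.22. Insulin-like growth factor genes gave 2 of 11 in granulosa with and without the Cyp17a1 cells, with Igfbp5 at 37.8 and 105 CPM without the Cyp17a1 cells, and 1 of 11 in mesenchyme. Atresia and remodeling genes gave 1 of 14 in the whole gate (Igfbp5), 2 of 14 without the Cyp17a1 cells (Igfbp5 and Angpt2) and 1 of 18 in mesenchyme (Igfbp3). WNT genes gave 3 of 5 in the whole gate (Wnt5a, Wnt6 and Fzd2), 1 of 3 without the Cyp17a1 cells (Fzd2) and 1 of 9 in mesenchyme (Fzd1). The ligand gene Wnt5a had a ratio of 13.2 in the whole gate and was at 0.788 and 1.55 CPM without the Cyp17a1 cells. Lipid droplet genes gave 2 of 12, 1 of 11 and 0 of 10. The study compares genes between follicle waves, chosen on these libraries, and 11 of them were listed here. Of these 11, Igfbp5 and Prlr passed in the whole gate, Igfbp5 alone without the Cyp17a1 cells and none of 10 in mesenchyme. The list leaves out Hsd17b1, Nr5a2, Fshr and Inha, which the study also compares. Hsd17b1 was past 2-fold higher in both readings of the granulosa gate. Nr5a2 was at 429 and 386 CPM in granulosa cells (ratio 0.899) and past 2-fold lower in mesenchyme.

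**Figure D5:**
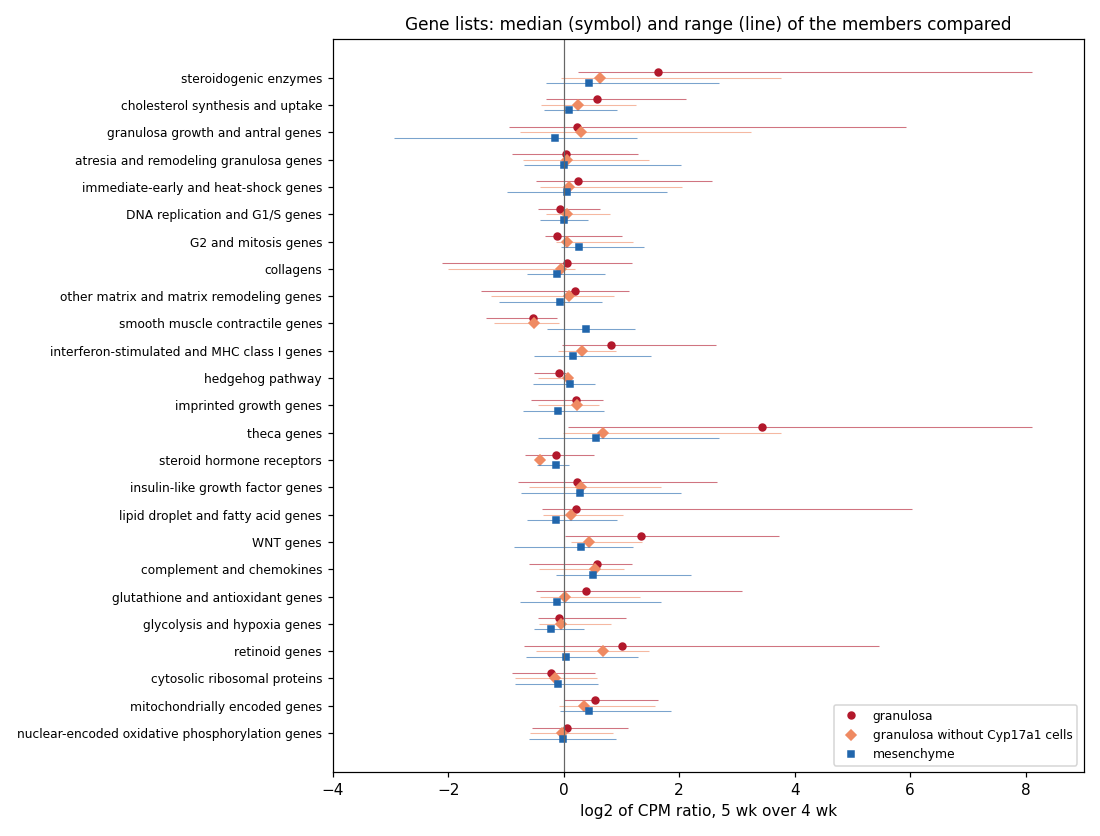
Log2 ratio of CPM at 5 wk over 4 wk for 25 gene lists, as the median (symbol) and the range (line) of the members compared in the granulosa gate, in the gate without Cyp17a1 cells and in mesenchyme. The medians of the steroidogenic and theca lists lay at 1.64 and 3.43 in the whole gate and at 0.62 and 0.68 without the Cyp17a1 cells.

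The number of genes past 2-fold in granulosa and near 1 in mesenchyme (a ratio of at least 0.8 and at most its inverse) depended on the Cyp17a1 cells. The number past 2-fold in mesenchyme and near 1 in granulosa differed less. With the Cyp17a1 cells, 7605 genes were compared in both lineages, of which 286 were past the limit in granulosa and 159 in mesenchyme. Of the 286, 66 were near 1 in mesenchyme (59 higher and 7 lower). Of the 159, 9 were near 1 in granulosa (7 and 2). Without them 7519 genes were compared in both, with 167 and 148 past the limit. The numbers near 1 in the other lineage were 17 (11 and 6) and 11 (8 and 3). Over all genes compared in a lineage, 62.8% were near 1 in mesenchyme. In granulosa 62.3% were with the Cyp17a1 cells and 65.8% without them. The ratio in granulosa divided by that in mesenchyme, given with a counting interval, measures the difference between the lineages, which was not tested across libraries. The genes in the following paragraphs were named after their values were seen, except where the lists hold them.

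On the granulosa side the higher genes included Tmem86a, which cleaves ether lipids, at 19 and 66.4 CPM in granulosa and 34.2 and 34.5 CPM in mesenchyme (granulosa ratio over mesenchyme ratio 3.45, 3.08 to 3.88). Mrap, an accessory protein of the ACTH receptor, gave 3.12 (2.59 to 3.76), the serine protease-like Prss35 3.11 (2.67 to 3.61) and the phosphodiesterase Pde10a 2.54 (2.2 to 2.94). Id2, an inhibitor of helix-loop-helix factors, was at 65.1 and 139 CPM in granulosa and 263 and 254 CPM in mesenchyme, a quotient of 2.21 (2.1 to 2.33). Igfbp7 and Gng11 also met the rule but lay to at least 50% in 10 cells. The lower genes were Col1a2, Col3a1, Creb5, Dusp8, Nr1d1 and Sncaip, and Creb5 gave the lowest quotient among the 17, at 0.359 (0.289 to 0.448). Inhba was not compared in mesenchyme, where it stayed under 10 CPM, at 9.8 and 7.28 CPM. Its quotient of 6.9 (5.69 to 8.37) therefore rests on mesenchyme levels under the minimum.

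On the mesenchyme side Ctsc, a lysosomal protease, was at 22.2 and 50.2 CPM in mesenchyme and 10.2 and 9.19 CPM in granulosa, with a quotient of 0.397 (0.337 to 0.467). Gfpt2, of the hexosamine pathway, was at 19.8 and 40.3 CPM in mesenchyme and 32.2 and 27.5 CPM in granulosa (quotient 0.419, 0.367 to 0.478). Bmpr1b, a receptor of bone morphogenetic proteins, was at 6.23 and 15.1 CPM in mesenchyme (quotient 0.501, 0.412 to 0.609). It was far higher in granulosa, at 113 and 137 CPM. The keratins Krt8 and Krt18 met the rule with at least 50% of their UMIs in 10 cells. Bpgm, which makes 2,3-bisphosphoglycerate, was lower, at 156 and 76.4 CPM against 12.4 and 11.8 CPM in granulosa. Tnni3 and Nr5a2, the other lower genes, were each over 10 times as high in granulosa as in mesenchyme.

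A single gene was past 2-fold in opposite directions. Stc1, the secreted stanniocalcin 1, was at 6.83 and 19.4 CPM in the whole granulosa gate (ratio 2.83, 2.53 to 3.18) and at 82.8 and 36.6 CPM in mesenchyme (ratio 0.442, 0.409 to 0.477). Without the Cyp17a1 cells it was at 4.84 and 3.43 CPM in granulosa, under the minimum for comparison, and no gene was past the limit in opposite directions.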

How the data were processed

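Ovarian cells of 5 ages, 1 library each, were profiled by the 10x Genomics 3′ method, and 4 and 5 wk were compared. The authors deposited raw UMI counts per gene and cell, not normalized, from Cell Ranger (3.1.0 at 2, 3 and 4 wk, 6.0.1 at 5 and 6 wk, per the file headers) on mm10. From these counts, CPM was summed within gates with numpy 2.4.6, pandas 2.3.3 and scipy 1.17.1, and drawn with matplotlib 3.10.9. Libraries held 117666094 UMIs in 11077 cells and 107071492 in 7779. Levels have exact Poisson, shares exact Clopper-Pearson and ratios conditional intervals, and a count of 0 allows up to 3. Inha and Dcn were left out of the genes compared. Scrublet in scanpy 1.11.5 called 555 and 162 doublets, which were kept except in an alternative. Immune cells had at least 3 UMIs summed over immune markers and 0 of Inha and Dcn. Named genes are those of the lists and the 15 highest and 15 lowest ratios in each lineage and shared by both, with at least 200 UMIs, without mitochondrial, ribosomal and unnamed models. The gates, lists and rules were chosen with earlier results of these data known, and 2 alternatives beside the 13 planned were added after seeing the data. The ratio script was tested on simulated data. Other ages entered as levels. The values of 1 listed gene are not reported here.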

Additional observations from a re-analysis of the deposited data

Results flagged for a closer look

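Stc1 went in opposite directions in the 2 lineages, with a ratio of 5 wk over 4 wk of 2.83 in the whole granulosa gate and 0.442 in mesenchyme. The difference was not tested, since each lineage has 1 library per age. Without the cells that held at least 3 Cyp17a1 UMIs the granulosa ratio was 0.709.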

How the results depend on the processing

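No paired analysis was possible because each age has 1 library, and no replicate could be left out. Counts are given in the order granulosa higher, granulosa lower, mesenchyme higher, mesenchyme lower, both lineages, granulosa alone and mesenchyme alone, and were 333, 45, 194, 38, 100, 66 and 9. With no CPM minimum they were 2381, 845, 1567, 880, 693, 521 and 408, with a minimum of 50 CPM 112, 12, 59, 13, 31, 15 and 0, and with a fold limit of 1.5 they were 916, 307, 687, 376, 465, 242 and 125. Each of these settings changes by its construction how many genes can pass. Weighting each cell equally gave 62 lower genes in mesenchyme. A total without mitochondrial and ribosomal protein genes gave 66 lower in mesenchyme and 15 in mesenchyme alone. Without cycling cells 71 were lower in granulosa, 102 were past the limit in granulosa alone and 14 in mesenchyme alone, and Hist1h2ap in mesenchyme turned to a ratio of 0.90. The cause was not tested for these 3 settings. With a mitochondrial share under 10%, 253 genes were higher in granulosa and 44 were past the limit in granulosa alone.

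Leaving out granulosa cells with at least 3 or at least 1 Cyp17a1 UMIs, alternatives chosen after seeing the data, gave 177 and 176 higher genes and 17 in granulosa alone both times. In granulosa it turned Col3a1 to 0.458 and 0.426, the glutathione transferase Gsta2 to 0.308 and 0.346 and Stc1 to 0.709 and 0.848. Of 6893 ratios of named genes recomputed, 5089 stayed within the counting interval and 7 reversed, and these are the 7 just given. Without cells of at least 3 Cyp17a1 UMIs 251 of 342 moved outside the interval and did not reverse. Without cycling cells 346 of 728 did so, and with each cell weighted equally 334 of 728.

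The granulosa share of cells at 4 and 5 wk was 45.6% and 35.2% with at least 10 Inha UMIs, 54.7% and 41.1% with at least 2000 genes per cell, and 44.2% and 34.3% without cycling cells. It was 35.7% at 5 wk with a mitochondrial share under 10%, 50.5% at 4 wk without called doublets, and 34.5% at 5 wk without Cyp17a1 cells. The mesenchyme share was 20.3% and 31.3% with at least 6 Dcn UMIs, 22.5% and 34.0% with at least 2000 genes, 27.0% and 38.8% with a mitochondrial share under 10%, and 29.5% and 39.0% without cycling cells. Without called doublets it was 27.2% at 4 wk. Granulosa cells had the lower share at 5 wk and mesenchyme the higher one under each of these settings that gives both ages.

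With 1 library per age, no spread between animals was measured. The gates use fixed UMI limits, and the median depth of their cells differed between the ages compared. The part of depth in the shares of cells and in the ratios was not tested. Removing the cells in which a gene was counted lowers that gene by construction, so no Cyp17a1 ratio without them is read as a result.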
